A study of Bos taurus with 2 samples.

Results

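Immediate early genes are switched on within minutes of a stimulus, before any new protein is made, and they are sensitive to how a tissue is handled. The 10 genes described here are *FOS*, *FOSB*, *JUN*, *JUNB*, *EGR1*, *IER2*, *IER3*, *NR4A1*, *NR4A3* and *DUSP1*. They were chosen by name, and a probe was assigned to a gene when its accession matched the gene symbol. Probes were found for 9 of the 10 genes, out of 26714 genes on the array, and all 9 were among the 19554 genes with a value. An accession that matched no symbol was counted as a gene of its own. Of the 26714 genes, 12603 have a symbol, as do 10637 of the 19554 with a value. No probe accession matched *NR4A3*, which was not analysed here.

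The fetuses were of Japanese Black cattle. The dams were fed 60% (LN group) or 120% (HN group) of the nutritional requirement throughout gestation. The longissimus thoracis (LT) muscle was taken at 8.5 months of gestation (day 260 ± 8.3). The RNA of 4 fetuses per group was pooled, namely the lightest fetuses of the LN group and the heaviest of the HN group, and each pool was measured on 1 array of the same slide. Diet and selection by BW cannot be told apart, and with 1 array per group there was no test between the groups. Delivery was surgical in both groups, and each fetus received lidocaine and was then bled. The muscle was either frozen in liquid nitrogen or soaked in RNAlater, and which of these was used for each pool, or how long it took, is not given in the sources used here. A difference in handling between the groups was not tested.

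The genes of this class share a common route of activation. MAP kinases and cyclic AMP signaling act on serum response factor, its ELK partners and CREB, which already sit at the promoters. The products are mostly transcription factors. FOS proteins pair with JUN proteins to form AP-1, EGR1 is a zinc finger factor, and NR4A1 is an orphan nuclear receptor. DUSP1 works in the opposite way, as a phosphatase that turns MAP kinases off. In skeletal muscle these genes are known to respond to contraction, stretch, injury and adrenergic signals.

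The arrays were alike in quality. Of the 43803 spots that were not controls, 74.5% were well above background in HN and 70.9% in LN, and no spot was saturated. The SD of the log2 LN/HN of a repeated spot was 0.085 (42 probes), and the median SD between the probes of a gene was 0.099 (7139 genes). Neither value includes the variation between fetuses, which the pools do not show. All 7 muscle fibre markers, such as *ACTA1* and *CKM*, were measured, with normalized log2 signals from 8.47 to 18.33, and markers of other cell types were measured as well. In the following, signals are the intensities as deposited, and every log2 LN/HN is the difference between the pools after quantile normalization. Probes differ in how strongly they bind, so signals are compared only between the pools. A difference is counted when the higher pool exceeds the lower one by more than 25%, the smaller fold threshold of the study, which is a log2 LN/HN beyond 0.32 in either direction.

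Among the 9 genes, *NR4A1* was the only one whose signal differed by more than 25% between the pools, being 1.62-fold lower in LN. *JUN* was 1.24-fold lower, just short of this threshold, with every probe lower. *EGR1* and *IER2* were lower to a smaller extent, *IER3* was slightly higher, and *FOS*, *FOSB*, *JUNB* and *DUSP1* had log2 LN/HN values between -0.01 and 0.10. Of all genes with a value, 9.11% were lower in LN past the 25% threshold (1781 genes) and 8.85% were higher (1731 genes). This split depended on the scaling of the arrays, because 49.3% of the counted genes were higher after quantile normalization, 30.7% with the 75th percentile of each array (2693 lower and 1191 higher) and 39.3% without normalization (2260 and 1462). The count of 1 lower and 0 higher among 9 genes is therefore near the background of all genes. The background is smaller in bright probes. At a normalized log2 signal from 9 to 12, which holds 9 probes of these genes, 4.29% of all probes were lower and 3.03% were higher. Of the 10637 genes with a symbol, 852 were lower and 830 were higher past the 25% threshold. The median log2 LN/HN of the 9 genes was -0.01, against -0.003 for all genes. None of the 9 differed more than 2-fold, whereas 0.286% of all genes were lower and 0.711% were higher in LN by this much.

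**Figure D1:**
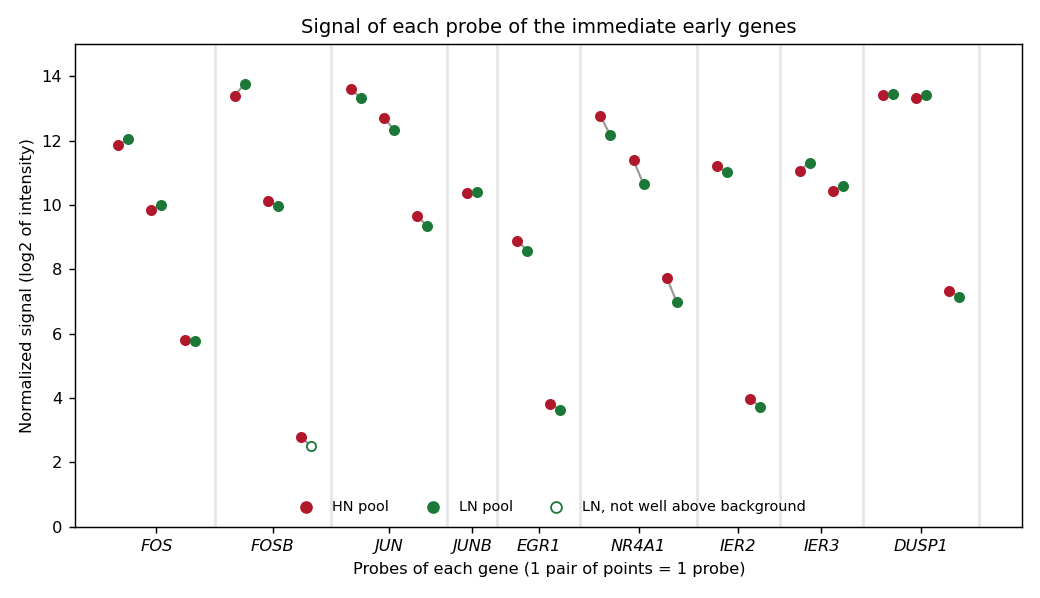
Normalized signal (vertical axis, log2 of intensity) of each probe of the 9 genes in the HN pool (red) and the LN pool (green), with a line joining the same probe. The 3 probes of *NR4A1* and the 3 of *JUN* all slope downward from HN to LN, whereas those of *FOSB* and *DUSP1* slope both ways. The open circle is the *FOSB* probe that was not well above background in LN.

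*NR4A1* encodes a nuclear receptor that controls genes of glucose and fatty acid metabolism in muscle and is induced by adrenergic stimulation and contraction. Its probe A_73_105006 had a signal of 6854 in HN and 4667 in LN. Probe A_73_P090191 had a signal of 2630 in HN and 1620 in LN, and probe A_73_P273901 had 210.4 in HN and 126.6 in LN. All 3 probes were thus lower in LN by a similar factor, although their signals covered a wide range. Their log2 LN/HN values were -0.59, -0.74 and -0.75, each with an error estimate of the scanner software of 0.20 or 0.21. The mean of the gene was -0.70 ± 0.09 (SD, n = 3 probes), larger than this error and than the spread between probes. It ranked 230th from the lowest of 19554 genes. Between 0.68% and 1.69% of the 30639 probes measured on both arrays had a lower value than an *NR4A1* probe. In a pooled muscle sample, fewer cells that express the gene and less RNA per cell cannot be told apart.

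The paralog *NR4A2* was lower in LN as well, with a log2 LN/HN of -0.47. Its probes A_73_115943 and A_73_P368881 had signals of 402.0 and 85.7 in HN and of 289.1 and 63.3 in LN. The log2 LN/HN was -0.51 and -0.43, respectively, while its remaining probe was not well above background in LN and gave no fold. With the normexp method of correcting the background, *NR4A2* was at -0.25, short of the 25% threshold. Both measured members of the NR4A family were therefore lower in LN, but the size for *NR4A2* depended on this correction.

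*EGR1* is a zinc finger transcription factor induced by growth factors and mechanical load. Its probe A_73_P038551 had a signal of 468.1 in HN and 387.8 in LN, a log2 LN/HN of -0.31. The other probe, A_73_P259551, was close to background, with a signal of 14.6 in HN and 11.8 in LN and a log2 LN/HN of -0.18 with an error estimate of 0.34. The mean of *EGR1* was -0.25 ± 0.09 (SD, n = 2 probes), a 1.19-fold lower signal in LN. Subtraction of the 75th percentile of each array, in place of quantile normalization, brought it to -0.32, just past the 25% threshold. The related *EGR2* and *EGR3* had no matched probe, and *EGR4* was not detected.

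The JUN family did not behave alike. *JUN*, the core subunit of AP-1, had signals of 12219, 6518 and 789 in HN for probes A_73_P317791, A_73_120007 and A_73_P101006. The signals in LN were 10367, 5238 and 658. Each probe was lower in LN, and the log2 LN/HN of these probes was -0.27, -0.35 and -0.30, with a mean of -0.31 ± 0.04 (SD, n = 3 probes). *JUN* stayed just short of the 25% threshold in all 12 other settings of the processing, from -0.32 to -0.27. The error estimate of each probe was 0.20.

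*JUNB*, a JUN protein that often restrains cell growth, has a single probe, with a signal of 1300 in HN and 1378 in LN. Its log2 LN/HN was 0.03, less than the SD of a repeated spot. In contrast, *JUND*, which is usually expressed at a steady level rather than induced, had a signal of 9641 in HN and 7277 in LN. Its log2 LN/HN was -0.44, from 1 probe, and stayed past the 25% threshold in all 12 other settings. The order among the JUN genes was thus *JUND*, *JUN* and *JUNB* from the lowest log2 LN/HN. In it, *JUND* and *JUN* differed by less than the error estimate of a probe and *JUN* and *JUNB* by more. That estimate, 0.20 for a *JUN* probe, comes from the scanner software and is wider than the SD of a repeated spot, 0.085.

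The FOS proteins have no stable dimer of their own and act through a JUN partner. For *FOS*, probe A_73_101038 had a signal of 3667 in HN and 4238 in LN, and probe A_73_P049126 had 906 in HN and 1042 in LN. Probe A_73_P101011 had 55.8 in HN and 54.5 in LN. Of the 3 probes, 2 were slightly higher in LN and 1 was alike in both pools. The log2 LN/HN values were 0.17, 0.16 and -0.01, with a mean of 0.10 ± 0.10 (SD, n = 3 probes), within the error estimate of 0.20 of a single probe.

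The probes of *FOSB* disagreed. Probe A_73_101823 had a signal of 10621 in HN and 13858 in LN, a log2 LN/HN of 0.37 and the only probe of the 9 genes that was higher in LN past the 25% threshold. Probe A_73_P356791 had a signal of 1095 in HN and 1009 in LN, a log2 LN/HN of -0.17. The remaining probe, A_73_P274581, had a signal of 7.38 in HN and 5.29 in LN and was not well above background in LN, so no fold was given. The mean of *FOSB* was 0.10 ± 0.38 (SD, n = 2 probes), and its direction is not settled by these probes. *FOSL2*, another FOS protein, had probes near background with values of 0.15 and -0.34 and a mean of -0.10. It was below 0 in 10 of the 12 other settings, from -0.35 with the authors' normalized values, past the 25% threshold, to 0.15 with its brightest probe, so its direction is not settled. *FOSL1* was not detected.

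**Figure D2:**
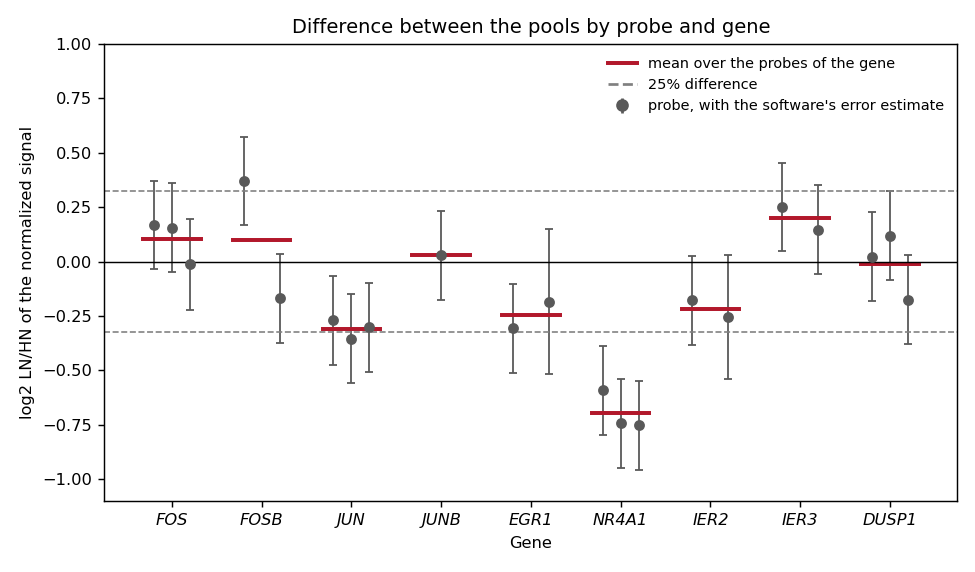
Log2 LN/HN (vertical axis) of each probe of the 9 genes measured on both arrays (gray points), with the error that the scanner software estimates for both signals combined, and the mean of each gene (red bars). The dashed lines mark a 25% difference. The probes of *NR4A1* lie between -0.75 and -0.59, below the lower line, and those of *FOSB* lie on either side of 0.

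*IER2* and *IER3* carry the name of the class without being related to each other in sequence. *IER2* encodes a small nuclear protein. Its probe A_73_114011 had a signal of 2320 in HN and 2117 in LN, and its probe A_73_P244360, near background, had 16.4 in HN and 12.7 in LN. The log2 LN/HN values were -0.18 and -0.26, with a mean of -0.22 ± 0.05 (SD, n = 2 probes). Both probes were lower in LN, but the mean was -0.06 with the normexp correction.

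*IER3* encodes a protein that modulates survival under stress and inflammatory signals. It had the highest log2 LN/HN of the 9 genes. Its signals were 2111 and 1361 in HN and 2592 and 1567 in LN, for probes A_73_P504623 and A_73_P031796. Both were higher in LN, with log2 LN/HN values of 0.25 and 0.15 and a mean of 0.20 ± 0.07 (SD, n = 2 probes), a 1.15-fold difference. *IER3* stayed above 0 and short of the 25% threshold in all 12 other settings, from 0.18 to 0.25.

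*DUSP1* encodes a phosphatase of p38, JNK and ERK and is induced by glucocorticoids as well as by stress. It is the only phosphatase among the 10 genes. Its probes A_73_P280851 and A_73_108770 had signals of 10942 and 10082 in HN and of 11213 and 11087 in LN. Probe A_73_P107251 had 158.3 in HN and 141.4 in LN. The log2 LN/HN values were 0.02, 0.12 and -0.18, with a mean of -0.01 ± 0.15 (SD, n = 3 probes). The pools did not differ beyond the spread between its probes.

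Across these genes, 8 had at least 2 probes with a value. Every probe was lower in LN in 4 of them (*NR4A1*, *JUN*, *EGR1* and *IER2*), every probe was higher in 1 (*IER3*), and probes went both ways in 3 (*FOS*, *FOSB* and *DUSP1*). Of the 7460 genes on the array with at least 2 probes with a value, every probe was lower in 29.5% and every probe was higher in 28.7%. Of the 21 member probes with a value, 4 were lower in LN past the 25% threshold, namely the 3 of *NR4A1* and 1 of *JUN*, and 1 was higher. The spread of the log2 LN/HN over the probes of all genes depends on the signal, and it includes any real differences between the pools. In probes of all genes with a normalized log2 signal below 6, the log2 LN/HN lay between -0.65 and 0.78 for 95% of probes, and 14.2% of probes were lower and 17.2% higher past the 25% threshold. From 6 to 9 this range was -0.47 to 0.43, with 6.70% of probes lower and 5.67% higher. From 9 to 12 it was -0.40 to 0.35, with 4.29% lower and 3.03% higher, and at 12 and above it was -0.35 to 0.31, with 3.26% lower and 2.32% higher. The *NR4A1* probes, at mean log2 signals from 7.35 to 12.47, lay outside the range of their own signal class, and so did the high probe of *FOSB*. One probe of *JUN*, A_73_120007, was at -0.354, the edge of its class. None of the 3 member probes with a mean log2 signal below 6, which are those of *FOS*, *EGR1* and *IER2* with the lowest signal, was past the threshold. The median log2 LN/HN of the spots around each member spot lay between -0.02 and 0.10, and around the *NR4A1* probes between -0.004 and 0.02. The highest, 0.095, was around the *DUSP1* probe A_73_108770, whose own log2 LN/HN was 0.12.

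**Figure D3:**
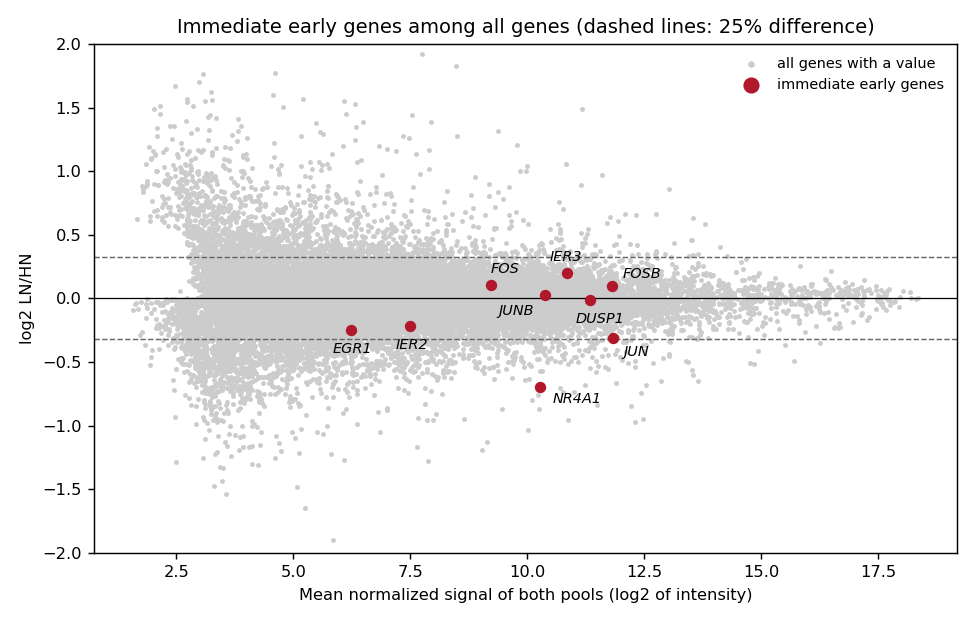
Log2 LN/HN (vertical axis) against the mean normalized signal of both pools (horizontal axis, log2 of intensity) for all 19554 genes with a value (gray) and the 9 immediate early genes (red). The dashed lines mark a 25% difference, and 12 genes lie outside the plotted range. *NR4A1* lies at the lower edge of the gray cloud at its signal, and the other 8 genes lie within it.

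Other genes of the immediate early class were described from a list of 43 genes, of which 37 had a matched probe and 33 had a value. Of these 33, 7 were lower in LN past the 25% threshold, 1 was higher, and the median log2 LN/HN was -0.10. In all, 24 of the 33 were below 0, as were 50.7% of all genes. For the counts past the threshold the background shares are the 9.11% and 8.85% given above, and no test of the list was made. The 7 lower genes were *ATF3*, *PPP1R15A*, *ID1*, *NR4A2*, *JUND*, *HES1* and *TRIB1*. *GADD45G* was the single gene that was higher.

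*ATF3*, a stress-induced factor of the same leucine zipper class as FOS and JUN, showed the largest difference of this list. Its single probe had a signal of 7758 in HN and 4125 in LN, a log2 LN/HN of -0.95, just short of 2-fold. *ID1*, an inhibitor of helix-loop-helix factors such as MYOD, had signals of 4391 and 339.0 in HN and of 3020 and 210.6 in LN for its 2 probes, with a mean log2 LN/HN of -0.64. *ATF3* and *ID1* stayed past the 25% threshold in all 12 other settings. *HES1*, a repressor downstream of Notch, was at -0.42, based on its only probe.

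*PPP1R15A* encodes a phosphatase subunit that restores translation after stress. Its log2 LN/HN was -0.65, of which 1 probe gave -0.36, while for the other, not well above background in LN, the value of -0.93 is only a limit. *TRIB1*, a pseudokinase that binds MAP kinase kinases, had values of -0.44 and -0.30. With the normexp correction, *PPP1R15A* was at -0.15 and *TRIB1* at -0.23, both short of the threshold. *MCL1*, a survival gene with a short-lived transcript, was alike in both pools (-0.01, with 3 probes from -0.06 to 0.02). *BTG2* had no matched probe.

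**Figure D4:**
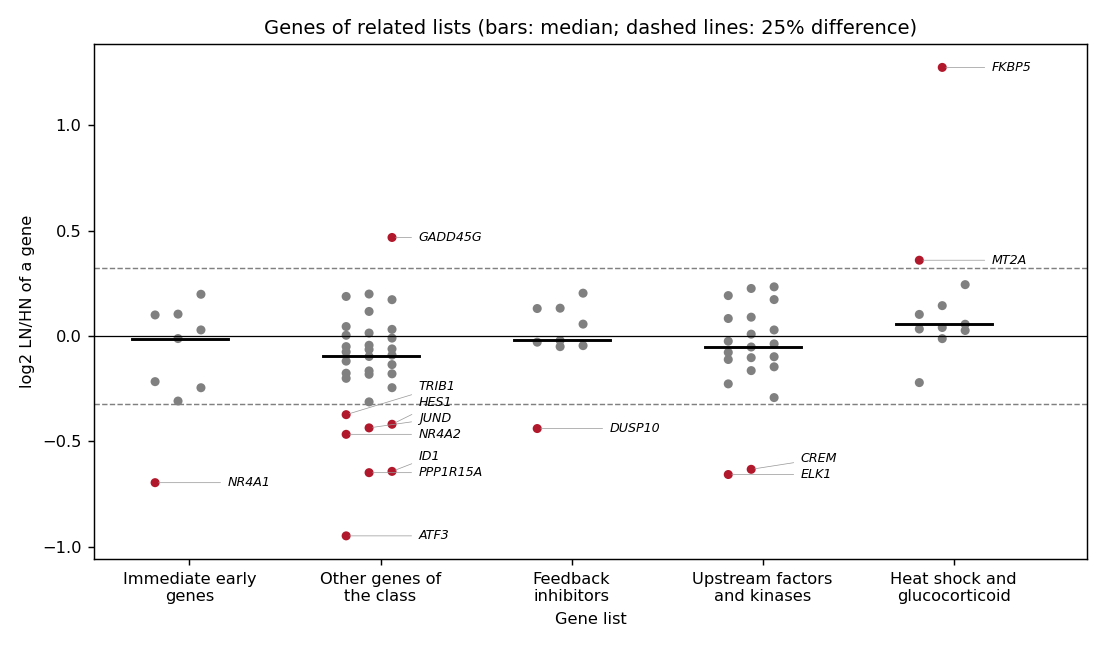
Log2 LN/HN (vertical axis) of each gene with a value in the 9 immediate early genes and 4 related lists (horizontal axis). Genes past a 25% difference (dashed lines) are red and named, and black bars are medians, which lie between -0.10 and 0.06. The list of other genes of the class has 7 genes below the lower line, with *ATF3* lowest.

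Upstream of these genes, 24 transcription factors and kinases were listed and 21 had a value. Of these, 2 were lower in LN past the 25% threshold and none was higher, with a median log2 LN/HN of -0.05, against the 9.11% of all genes that were lower and the 8.85% that were higher. *CREM*, whose products bind cyclic AMP response elements and include repressors, had a log2 LN/HN of -0.63. Its detected probes had signals of 146.9 and 120.9 in HN and of 104.9 and 70.5 in LN, and each was lower in LN. *ELK1*, a partner of serum response factor, was at -0.66, but its only probe was near background (19.8 in HN and 11.6 in LN) and gave -0.06 with the normexp correction. *SRF* itself was at 0.23, short of the threshold, with its probes at 0.05 and 0.41.

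Feedback inhibitors of MAP kinases and EGR factors were described from a list of 14 genes, of which 9 had a value, with a median log2 LN/HN of -0.02. *DUSP10*, a phosphatase of JNK and p38, was the only one past the 25% threshold, also near the background shares. Its probes had signals of 707 and 160.2 in HN and of 537 and 118.9 in LN, both with a log2 LN/HN of -0.44.

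Heat shock and glucocorticoid-responsive genes can also move with the handling of a tissue. Of the 13 listed, 11 had a value, none was lower past the 25% threshold, 2 were higher, and the median log2 LN/HN was 0.06, with 9 of the 11 above 0. Of all genes, 49.3% were above 0 and 8.85% were higher past the threshold. The 8 heat shock and oxidative stress genes with a value, from *HMOX1* (-0.22) to *HSPH1* (0.24), with *HSPA1A* at 0.04, were all short of the threshold. *FKBP5*, a target of the glucocorticoid receptor, was 2.42-fold higher in LN, with signals of 605, 538 and 38.5 in HN and of 1543, 1436 and 84.8 in LN for its detected probes. *MT2A*, a metallothionein, was 1.28-fold higher, with a log2 LN/HN of 0.36 that was 0.31 with its brightest probe, short of the threshold. *TSC22D3*, another target of this receptor, had a log2 LN/HN of 0.03, close to that of *DUSP1*.

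Markers of other cell types were also measured, and their counts stand against the 50.7% of all genes below 0, the 9.11% lower and the 8.85% higher past the 25% threshold. The summed normalized signal of the 5 endothelial markers was 32395 in HN and 25037 in LN, a log2 LN/HN of -0.37, with 4 of 5 below 0 and 1 past the threshold (*CLDN5*). That of the 5 macrophage markers was 6024 in HN and 5048 in LN (-0.26), with 4 of 5 below 0 and 1 past the threshold (*CD68*). For the 5 fibroblast markers it was 283200 in HN and 354425 in LN (0.32), with all 5 above 0 and 3 past the threshold. For the 4 of 5 neutrophil markers with a value it was 1286 in HN and 2166 in LN (0.75), with 3 higher past the threshold and *CXCR2* lower, as a limit from a dim probe. Closer to 0 were the sums for muscle fibre markers (-0.07), the 4 of 6 erythroid markers with a value (-0.004) and 3 T cell markers (-0.11). Of these markers, 6 of 7 for muscle fibres, 3 of 4 erythroid and 2 of 3 for T cells were below 0. Only the T cell marker *CD2* was past the threshold, being lower in LN. All of these sums weight bright probes more. The part of these values in the lower *NR4A1* and *JUN* signals was not tested.

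**Figure D5:**
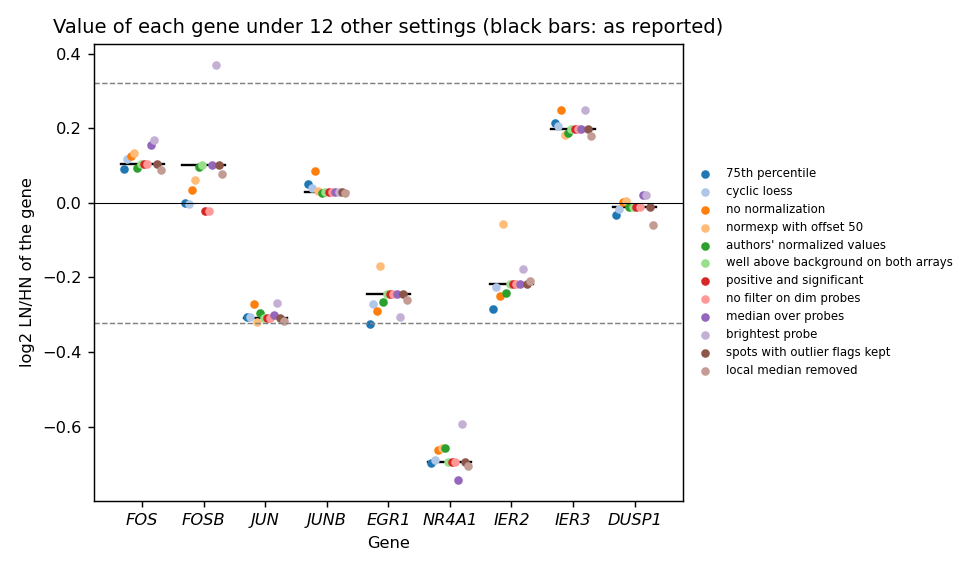
Log2 LN/HN (vertical axis) of each of the 9 genes under 12 other settings of the processing (coloured points) and as reported (black bars), with dashed lines at a 25% difference. *NR4A1* lies between -0.74 and -0.59, past the lower line in every setting, and *JUN* lies just above that line in every setting.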

How the data were processed

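LT muscle RNA, pooled from 4 fetuses per group, was hybridized to 1 one-color (Cy3) Agilent bovine array per group. The authors deposited the spot intensities of Feature Extraction 11.0.1.1, corrected for background within each array. They also deposited quantile-normalized log2 values from GeneSpring GX for 30027 probes (log2 judged from the values). Log2 intensities of the 43803 non-control spots were normalized by the quantile method, as in the study's methods. The 13 spots that either array's software called outliers were left out, and repeated spots were averaged to 43652 probes. Detection required a signal well above background in HN or LN. If the other pool was dim, its value was replaced by the array's lowest signal well above background (log2 2.27 in HN and 2.82 in LN), unless its own was higher, and the result is a limit. No fold was given if the bright pool did not exceed that limit. A gene is the mean of its detected probes, and 25% means a ratio of 1.25 between the pools. Accessions were matched to symbols through the RefSeq table of ARS-UCD2.0 (26742 probes), used only for names, since the array refers to build UMD 3.1. No sequences were available in the tables used here, so the planned promoter and protein comparisons were not made, and no coordinates are given.

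The members and lists were chosen with earlier results of these data known. The rule for named genes was every member, and in 4 further lists every gene past 1.25-fold plus a few preset genes (*JUND*, *FOSL2*, *EGR2*, *EGR3*, *ATF3*, *NR4A2*, *MCL1*, *SRF* and *BTG2*); genes named beyond it were chosen after their values were seen. Alternatives were the 75th percentile, cyclic loess and no normalization, normexp with an offset of 50, the authors' log2 values, other rules on dim probes, the median or brightest probe of a gene, and spots called outliers kept. The thresholds of 1.25-fold and 2-fold are those of the study. The scanner files used here hold median and not mean spot signals, so the normexp correction used medians. R 4.3.3, limma 3.58.1, Python 3.11.15, numpy 2.4.6 and pandas 2.3.3 were used. The steps were tested on simulated data with the same noise at all signals. Detection was the same in both simulated pools, so the rule for a dim pool was not tested. The number of arrays limits the precision.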

Additional observations from a re-analysis of the deposited data

How the results depend on the processing

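Of 12 other settings, 11 were planned and 1, removal of the local median of the array, was chosen after seeing the data. *NR4A1* kept its direction and stayed past the 25% threshold in all 12. The lower count of the 9 genes was 2 in place of 1 with the 75th percentile (*EGR1* added), and the higher count was 1 in place of 0 with the brightest probe (*FOSB*, 0.37). *FOSB* was below 0 in 4 settings (lowest -0.02) and *DUSP1* above 0 in 4, and *FOSL2* went from -0.35 with the authors' values, past the threshold, to 0.15 with the brightest probe. Among the 33 related genes, normexp left 4 lower genes in place of 7. Scoring every positive and significant probe, or every probe, gave 3 higher genes in place of 1 (*FOSL1* and *SOCS3* added) and 9 lower genes (*CSRNP1* and *ARC* added). *FOSL1*, *SOCS3* and *ARC* were not detected by the rule used for the reported values.

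Over all genes, 1781 were lower and 1731 higher past the 25% threshold. With the 75th percentile these were 2693 and 1191, a scaling that put the median of all genes at -0.04, and without normalization 2260 and 1462. They were 386 and 319 after normexp, 3777 and 3125 for positive and significant probes, and 3592 and 3251 without a filter. No gene of the 9 or of the related, feedback, upstream and handling lists that was past the threshold in the reported values changed direction, whereas *FOSB* and *FOSL2*, past it in 1 other setting each, did. The marker genes were not recomputed under these settings. A block for the slide and leaving out a replicate were not run, because both arrays are on 1 slide and each group has 1 array. *EGR1*, *IER2* and *FOSB* each have a probe near background, and with normexp *ELK1* moved from -0.66 to -0.06 and *PPP1R15A* from -0.65 to -0.15.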

Other observations

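*GADD45G*, a stress sensor that activates p38 and JNK signaling, was the single gene of the immediate early class that was higher in LN past the 25% threshold. It had signals of 5050 and 396 in HN and of 6996 and 581 in LN for its 2 probes, a log2 LN/HN of 0.47 that stayed past the threshold in all 12 other settings. Its paralogs had values of 0.17 for *GADD45A* (probes at 0.13 and 0.22) and 0.20 for *GADD45B* (0.17 and 0.23), both short of the threshold. No cause was tested.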
